A study of Mus musculus with 24 samples.

Results

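The frontal lobe of Arg1 knockout mice given a viral treatment (TR) was compared with that of Arg1 heterozygotes (HE). The comparison took the 6 TR and the 6 HE arrays by their labelled genotype, which are 12 of the 24 arrays of the series, and was made within the labelled batches that hold both groups. The other 12 arrays are 6 of untreated Arg1 knockouts (KO) and 6 of wild types (WT). In batch 2 each group had 1 array at each of postnatal days 13, 14 and 15. In batch 3 each group had 3 arrays, all at day 14, and KO and WT were also present with 3 arrays each. The remaining KO and WT arrays formed batch 1, again with 1 array per group at days 13, 14 and 15. The extraction protocol speaks of day 14 only, so the days used here are those of the sample labels. The labels do not state the virus, its promoter, its dose or when it was given, nor whether HE received a control virus. Genotype and treatment therefore differ together between TR and HE.

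Arginase 1 carries out the last step of the urea cycle in the liver, the cleavage of arginine into urea and ornithine. Its loss causes hyperargininemia, in which arginine builds up in blood and tissues and the nervous system is affected, with spasticity and impaired movement. The early postnatal weeks in the mouse are a time when oligodendrocytes mature and the axons of the forebrain begin to be myelinated. Heterozygous carriers keep a working copy of the gene and are usually without symptoms. Setting treated knockouts against heterozygotes asks how far the frontal lobe of a treated knockout still differs from that of an animal with a working allele.

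Each array gave 1 log2 value for each of 18057 mouse genes, identified by Ensembl number. The files do not pair these numbers with gene names, so genes are given by number, the targeted gene could not be checked by name, and the tissue label could not be set against cell type markers. The array medians lay between 6.73 and 6.79 in TR and HE and between 6.71 and 6.79 over all 24 arrays. The labels do not say whether arrays of a group came from separate litters, and p-values measure only the spread between these samples. In a piece of tissue, fewer cells of a type and less RNA per cell cannot be told apart.

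TR and HE frontal lobes were close to each other across the genes measured. With all arrays and batch in the model, 0 of 18057 genes (0%) had a limma adjusted p (Benjamini-Hochberg) under 0.05, and the smallest was 0.592. At an unadjusted p under 0.05 there were 792 genes (4.39%), of which 502 were higher and 290 lower in TR. The difference between TR and HE had a 5th percentile of -0.136 log2 and a 95th percentile of 0.143 over all genes. Over both batches, a difference of at least 0.5 log2 was found in 11 genes that were higher and 5 that were lower in TR. From 3 arrays a group, TR against HE had 21 genes higher and 59 lower by at least that much in batch 2, and 16 higher and 12 lower in batch 3. From as many arrays, KO against WT had 356 genes higher and 304 lower in batch 1, and 202 higher and 179 lower in batch 3.

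The arrays were precise enough to bound most differences between TR and HE. The 95% interval of a gene's difference reached a median of 0.158 log2 to each side of its estimate. For 17589 genes (97.4%) the whole interval lay within 0.5 log2 of 0, and for 18019 genes (99.8%) within 1 log2. With the genes put into 4 groups of like size by level, this reach was 0.166, 0.178, 0.152 and 0.126, given from the dimmest group to the brightest. The median standard deviation of a gene over 3 arrays was 0.113 in TR and 0.114 in HE of batch 2, and 0.112 in TR and 0.101 in HE of batch 3, so the groups varied to a like degree.

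The smallest limma adjusted p (Benjamini-Hochberg) over all arrays, 0.592, belonged to a gene higher in TR that is not named here. ENSMUSG00000019987, which did not lead that fit, was higher in TR than in HE by an amount that passed the test in some fits and not in others. In batch 2 it read 7.17, 7.18 and 7.03 log2 in TR at days 13, 14 and 15, against 6.37, 6.42 and 6.33 in HE. In batch 3 it read 7.22, 7.37 and 7.45 in TR, against 6.41, 6.83 and 6.89 in HE. Every TR array was above every HE array in both batches. The difference was 0.75 log2 in batch 2, 0.64 in batch 3 and 0.70 ± 0.156 (SE, 6 arrays a group) over both. With all 24 arrays sharing 1 estimate of the spread, the limma adjusted p (Benjamini-Hochberg) was 0.917. When only the 12 TR and HE arrays were fitted it was 0.00287, the 1 gene (0.00554%) called in that fit. Over 28 alternative settings the adjusted p of this gene ran between 0.00287 and 0.9999. In batch 3 the same gene read 6.98, 6.87 and 7.40 in KO, against 4.31, 3.94 and 4.80 in WT. HE arrays therefore lay well above WT arrays of the same batch, and TR arrays overlapped the KO arrays.

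ENSMUSG00000037692 had the smallest p among the genes lower in TR. In batch 2 it read 7.03, 6.96 and 6.88 log2 in TR at days 13, 14 and 15, against 7.21, 7.25 and 7.12 in HE. In batch 3 it read 7.02, 6.81 and 6.90 in TR, against 7.11, 7.18 and 7.22 in HE. Every TR array was below every HE array of its batch. The difference was -0.25 ± 0.0574 (SE, 6 arrays a group), with a limma adjusted p (Benjamini-Hochberg) of 0.917 that reached no lower than 0.39 over 29 alternatives. KO against WT differed by 0.04 for this gene, and the limma adjusted p of the difference between the 2 contrasts was 0.0634.

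ENSMUSG00000037440 came next in p among the genes lower in TR, and passed no test between TR and HE. Its values in batch 2 were 4.15, 4.52 and 4.47 log2 in TR at days 13, 14 and 15, against 5.0, 5.01 and 4.96 in HE. In batch 3 they were 4.36, 4.61 and 4.47 in TR, against 4.64, 5.05 and 4.61 in HE. The groups were apart in batch 2 and met at 4.61 in batch 3. The difference of -0.45 ± 0.106 (SE, 6 arrays a group) gave an adjusted p of 0.917 by limma (Benjamini-Hochberg), and it did not pass the threshold in any of 28 alternatives, where the lowest was 0.148. KO against WT differed in the same direction for this gene, by -0.69 with an adjusted p of 0.000166. The difference between the 2 contrasts was 0.24, with a limma adjusted p of 0.441.

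**Figure D1:**
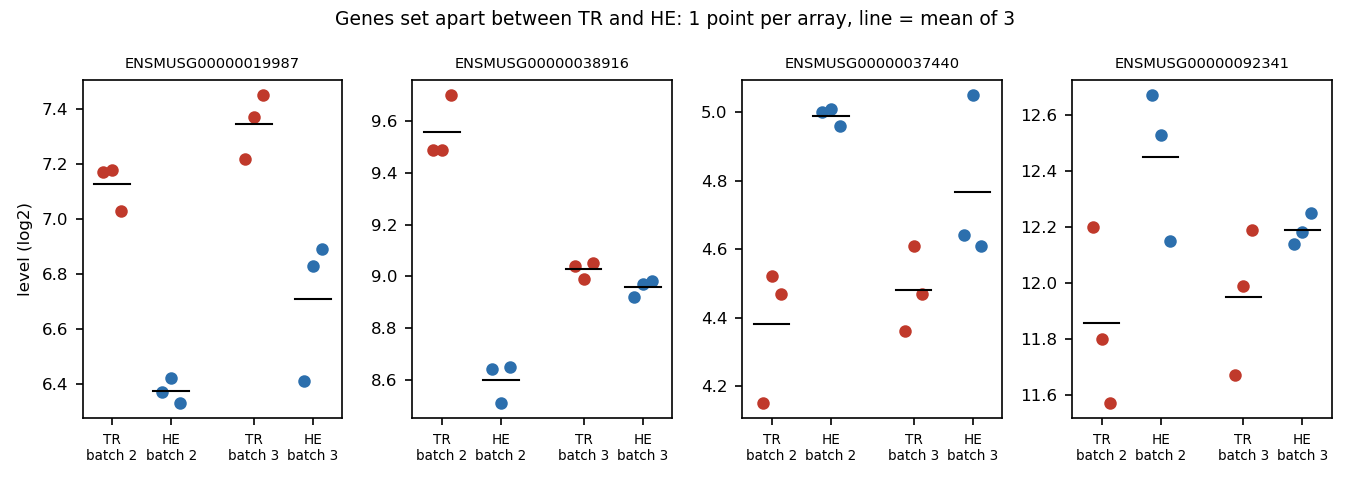
Level (log2) of 4 genes in each TR (red) and HE (blue) array of batch 2 and batch 3, with 1 point per array and a line at the mean of 3 arrays. ENSMUSG00000019987 is higher in every TR array of both batches, whereas ENSMUSG00000038916 differs by 0.96 log2 in batch 2 and 0.07 in batch 3.

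Batch 2, in which TR and HE were matched by day, was also fitted alone. It called 2 genes (0.0111%), both higher in TR, and 1159 genes had an unadjusted p under 0.05. With day as a block it called 9 genes (0.0498%), 3 higher and 6 lower in TR, and 1550 had an unadjusted p under 0.05. The block leaves few residual degrees of freedom, and only the 2 genes called without it passed in both fits. Batch 3 alone called 0 genes (0%) by limma, with 478 at an unadjusted p under 0.05. The 3 genes higher in TR in batch 2 differed by 0.664 to 0.959 log2 there and by 0.064 to 0.637 in batch 3. The 6 lower genes differed by -1.43 to -0.473 in batch 2 and by -0.243 to 0.243 in batch 3, where 3 of the 6 were below 0.

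ENSMUSG00000038916 was the gene of smallest p in batch 2. It read 9.49, 9.49 and 9.70 log2 in TR at days 13, 14 and 15, against 8.64, 8.51 and 8.65 in HE. In batch 3 it read 9.04, 8.99 and 9.05 in TR, against 8.92, 8.97 and 8.98 in HE. TR was above HE in both batches, by 0.96 in batch 2 (limma adjusted p 0.00101, Benjamini-Hochberg) and by 0.07 in batch 3. The difference between these 2 values was 0.89 ± 0.105 (SE), with a limma adjusted p (Benjamini-Hochberg) of 0.00593, and this was the 1 gene (0.00554%) called in that test. WT arrays of batch 1 were also uneven for this gene, at 7.42, 7.54 and 9.61, while the 3 KO arrays there read 9.61, 9.58 and 9.73.

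ENSMUSG00000092341 had the smallest p among genes lower in TR in batch 2 once day was a block. Its values were 12.20, 11.80 and 11.57 log2 in TR at days 13, 14 and 15, against 12.67, 12.53 and 12.15 in HE. At each day TR lay below HE, although the 2 groups overlapped across days. The difference was -0.59, with a limma adjusted p (Benjamini-Hochberg) of 0.0104 with the block and 0.681 without it. In batch 3 it read 11.67, 11.99 and 12.19 in TR, against 12.14, 12.18 and 12.25 in HE, a difference of -0.24.

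Differences seen in one batch were mostly small in the other. The 100 genes of highest t statistic (TR over HE) in batch 2 had a median of 0.374 log2 there and 0.030 in batch 3, where 58 of them were above 0, against 53.2% of all genes. The 100 of lowest t statistic had medians of -0.413 in batch 2 and -0.019 in batch 3, where 60 were below 0, against 46.8% of all genes. Chosen in batch 3 instead, the 100 highest had a median of 0.320 there and -0.0050 in batch 2, where 47 were above 0, against 51.0% of all genes. The 100 lowest had a median of -0.314 in batch 3 and -0.0089 in batch 2, where 53 were below 0, against 49.0% of all genes. Across genes, which are not independent, the differences of the 2 batches had a Pearson correlation of 0.058 and a Spearman correlation of -0.0050.

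Complete separation of the groups was rare when asked of both batches. TR lay wholly above HE in both batches for 40 genes, with a median difference of 0.18 log2, and wholly below for 28 genes, with a median of -0.16. Together they were 0.377% of all genes. Within batch 2 the groups were apart for 1340 genes in one direction and 982 in the other (12.9%), and within batch 3 for 846 and 538 (7.66%), the first number in each case being those higher in TR.

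**Figure D2:**
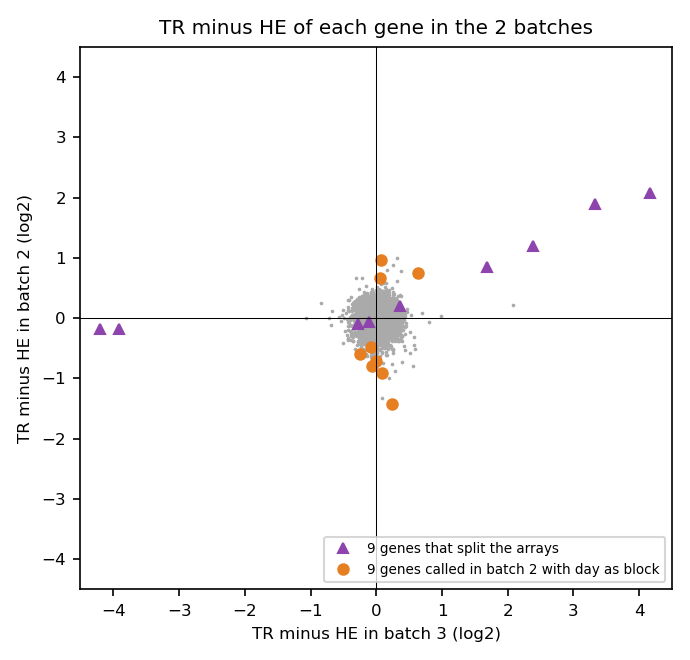
Difference between TR and HE (log2) of each gene in batch 3 (horizontal) and batch 2 (vertical), with 1 grey point per gene, 9 genes called in batch 2 with day as a block in orange and 9 genes that split the arrays in purple. The orange points spread along the vertical axis, with ENSMUSG00000019987 alone among them far to the right, at 0.64 log2 in batch 3.

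The widest differences between TR and HE came from genes that were high in some arrays of both groups and low in others. ENSMUSG00000069045 read 8.73 to 8.93 log2 in 5 of the 12 arrays and 2.25 to 2.84 in the other 7. The high arrays were 4 of 6 in TR and 1 of 6 in HE. ENSMUSG00000086503 read 11.13 to 12.66 in 6 arrays and 5.39 to 6.63 in the other 6, and its high arrays were 2 of 6 in TR and 4 of 6 in HE. The HE array of batch 2 at day 15 was low in both genes, and each of the other 11 TR and HE arrays was high in 1 of them. The split was uneven in batch 3. There ENSMUSG00000069045 was high in 2 of 3 TR, 0 of 3 HE, 2 of 3 KO and 3 of 3 WT arrays. ENSMUSG00000086503 was high there in 1 of 3 TR, 3 of 3 HE, 1 of 3 KO and 0 of 3 WT arrays. Over the 24 arrays, 5 genes counting ENSMUSG00000069045 itself followed it with a correlation above 0.9, and their differences between TR and HE ran between 0.283 and 3.12. Another 4 counting ENSMUSG00000086503 followed that gene, with differences between -2.20 and -0.088. None of these 9 was called. The labels do not give the sex of the animals and the files do not place these genes on chromosomes. With the split entered as 2 further terms, TR against HE again called 0 genes by limma.

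The genes that set KO apart from WT were then followed in TR and HE. They were chosen on the KO and WT arrays of batch 1, which share no array with TR, HE or batch 3, and comprised 406 genes higher in KO (2.25%) and 507 lower in KO (2.81%) at a limma adjusted p (Benjamini-Hochberg) under 0.05. In batch 3 the mean level of the higher genes was 7.57, 7.50 and 7.53 log2 in TR, against 7.60, 7.56 and 7.47 in HE. The same genes averaged 8.03, 7.70 and 7.85 in KO, against 7.55, 7.51 and 7.56 in WT. TR, HE and WT arrays overlapped, and all 3 KO arrays were above them. In batch 2 the higher genes averaged 7.64, 7.76 and 7.51 in TR at days 13, 14 and 15, against 7.60, 7.78 and 7.73 in HE, and the groups overlapped.

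The genes lower in KO were also followed. In batch 3 they averaged 8.12, 8.15 and 8.29 log2 in TR, against 8.09, 8.23 and 8.21 in HE. They averaged 7.89, 8.05 and 7.93 in KO, against 8.17, 8.21 and 8.22 in WT. KO arrays lay below every array of the other 3 groups in that batch. In batch 2 they averaged 8.05, 8.08 and 8.16 in TR at days 13, 14 and 15, against 8.12, 8.05 and 8.17 in HE, again with overlap.

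**Figure D3:**
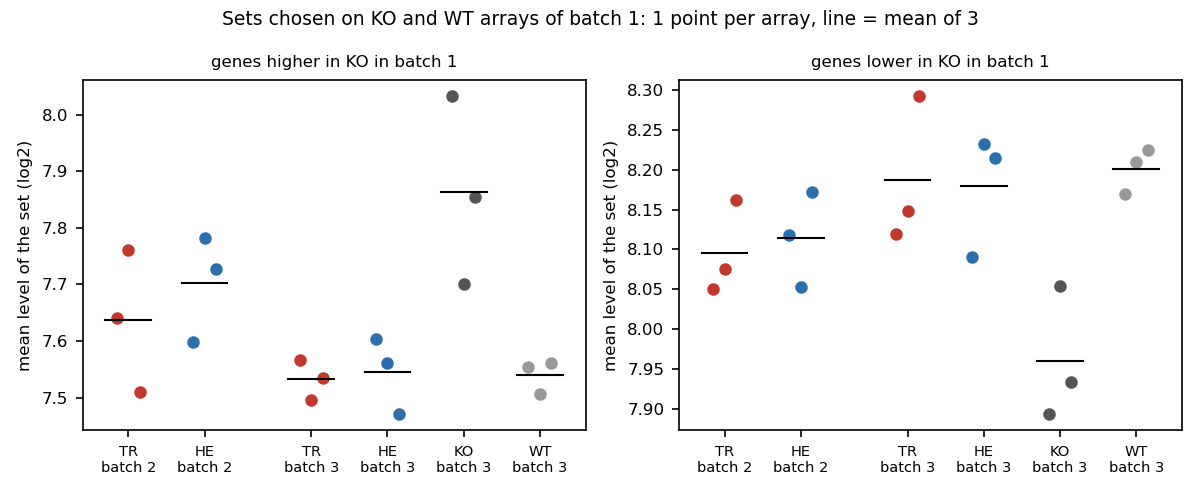
Mean level (log2) of the 406 genes higher and the 507 genes lower in KO in batch 1, in each array of batches 2 and 3, with 1 point per array and a line at the mean of 3. In batch 3 the KO points stand apart, above in the left panel and below in the right one, while TR, HE and WT points overlap.

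Gene by gene, the median difference between TR and HE was -0.028 log2 for the 406 genes higher in KO and -0.0011 for the 507 lower ones, against 0.0050 over all genes. Unadjusted p-values under 0.05 were found for 3 higher and 9 lower in TR among the 406 genes (2.96%). They were found for 4 higher and 5 lower among the 507 (1.78%), against 4.39% of all genes. The difference between KO and WT had a median of 0.541 in batch 1 and 0.266 in batch 3 over the 406 genes. Over the 507 it was -0.499 in batch 1 and -0.212 in batch 3. The fit of all arrays counts such a change between batches as spread. The lower shares are therefore partly set by how the genes were chosen. The difference between TR and HE minus that between KO and WT in batch 3 was below 0 for 350 of the 406 genes (86.2%), against 45.3% of all genes. It was above 0 for 427 of the 507 (84.2%), against 54.7% of all genes. For 255 of the 406 genes the 95% interval of the difference between TR and HE lay wholly below the KO and WT difference of batch 3, and for 4 wholly above it. Among the 507 genes it lay wholly above for 291 and wholly below for 9. Of all 18057 genes it lay wholly below for 2603 and wholly above for 3782, since the KO and WT difference entered these counts without its own error.

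The difference between the contrasts was tested directly over all arrays, since TR against HE and KO against WT share none. It called 379 genes (2.1%) at a limma adjusted p (Benjamini-Hochberg) under 0.05, of which 173 were higher and 206 lower. The 206 lower genes had a median difference of -0.060 log2 between TR and HE and of 0.446 between KO and WT, and 134 of them differed by under 0.1 between TR and HE. The 173 higher genes had medians of 0.049 between TR and HE and -0.415 between KO and WT, with 120 under 0.1. A difference of at least 0.3 between TR and HE was found in 6 of the 206 and 1 of the 173. Over all genes this difference had 5th and 95th percentiles of -0.136 and 0.143, and 1st and 99th percentiles of -0.235 and 0.215. Small differences between TR and HE were therefore general and not particular to the called genes. Of the called genes, 196 of the 206 and 160 of the 173 were also called in KO against WT, which called 1439 of all genes (7.97%) over all arrays. That overlap is partly fixed by the test, which contains the KO and WT difference. The count depended on the arrays fitted, with 11 genes called in batch 3 alone and 110 in batches 1 and 2 alone. With 2 terms for the arrays that split by ENSMUSG00000069045 and ENSMUSG00000086503 it was 173.

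ENSMUSG00000020427 was among the lower genes of this test. It read 6.73, 6.40 and 7.02 log2 in TR of batch 3, against 6.85, 6.96 and 6.71 in HE. In the same batch it read 8.42, 8.03 and 8.36 in KO, against 6.97, 6.79 and 6.88 in WT. In batch 2 it read 7.25, 7.36 and 7.40 in TR at days 13, 14 and 15, against 7.03, 7.40 and 7.37 in HE. KO arrays stood above all other arrays of batch 3, and TR and HE arrays overlapped. TR against HE differed by -0.03 over both batches, by 0.07 in batch 2 and by -0.12 in batch 3, and KO against WT differed by 1.46. The contrasts differed by -1.49 ± 0.132 (SE), with a limma adjusted p (Benjamini-Hochberg) of 3.83e-07.

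ENSMUSG00000031283 was among the higher genes. It read 6.84, 7.15 and 6.90 log2 in TR of batch 3, against 6.71, 7.08 and 7.43 in HE, and 6.10, 6.26 and 5.83 in KO, against 7.16, 7.09 and 7.41 in WT. In batch 2 it read 6.98, 6.40 and 6.63 in TR at days 13, 14 and 15, against 6.80, 6.88 and 6.75 in HE. The contrasts differed by 1.09 ± 0.152 (SE), with a limma adjusted p (Benjamini-Hochberg) of 0.000326 over all arrays and 0.140 in batch 3 alone. ENSMUSG00000025795 read 8.82, 8.81 and 8.97 in TR of batch 3, against 8.18, 8.67 and 8.80 in HE, and 7.84, 8.30 and 8.01 in KO, against 8.66, 8.81 and 8.73 in WT. Its contrasts differed by 0.98 ± 0.136 (SE), with an adjusted p of 0.000326 over all arrays and 0.0978 in batch 3 alone.

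ENSMUSG00000019987 was also called here, with contrasts that differed by -2.52 ± 0.221 (SE). TR exceeded HE by 0.70 log2 and KO exceeded WT by 3.22. The TR and HE difference was the highest among the 206 genes of its direction.

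**Figure D4:**
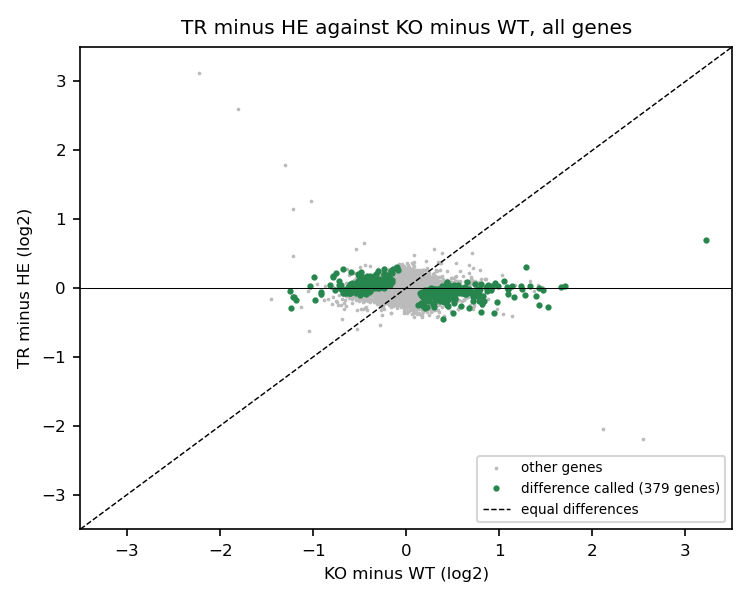
Difference between TR and HE (log2, vertical) against the difference between KO and WT (log2, horizontal), with 1 point per gene, the 379 genes for which the 2 differ by limma in green, and a dashed line where both are equal. The green points lie along the horizontal axis, and the green point far to the right at 0.70 is ENSMUSG00000019987.

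Over the 3 days of batch 2, a common slope in TR and HE was called for 11 genes (0.0609%), 7 rising and 4 falling with age, at a limma adjusted p (Benjamini-Hochberg) under 0.05. The 7 rising genes had slopes of 0.302 to 0.735 log2 per day and rose in both groups. The 4 falling genes had slopes of -0.473 to -0.285 and fell in both groups. A test for a common slope favours genes that move alike in both groups, so this likeness is partly set by the choice. In KO and WT of batch 1, which are other animals, all 7 rising genes had a positive slope and 3 of the 4 falling genes a negative one. An unadjusted limma p under 0.05 was found there for 5 of the 7 and 3 of the 4, against 2026 of all 18057 genes. The slope fit of batch 1 called 0 genes, with a smallest limma adjusted p (Benjamini-Hochberg) of 0.143. Across genes, which are not independent, the slopes of batch 2 and batch 1 had a Pearson correlation of 0.326 and a Spearman correlation of 0.311. The count of 11 genes in batch 2 rested on single arrays. It was 0 without the HE array of day 15, 3 without the TR array of day 13 and 55 without the HE array of day 13. Without the TR array of day 14 it was 43, and without the TR array of day 15 it was 48.

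ENSMUSG00000027375 had the smallest p among rising genes. At days 13, 14 and 15 it read 9.58, 10.35 and 10.71 log2 in TR, against 8.85, 9.56 and 10.24 in HE. It rose at each step in both groups, and TR lay above HE at each day. Its slope was 0.63 ± 0.0538 (SE) per day, with a limma adjusted p (Benjamini-Hochberg) of 0.00065, and 0.53 per day in batch 1. ENSMUSG00000021750 read 11.49, 11.87 and 12.27 in TR, against 11.26, 11.61 and 12.19 in HE, a slope of 0.43 with an adjusted p of 0.00299.

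ENSMUSG00000024501 fell with age, reading 11.59, 11.21 and 10.89 log2 in TR at days 13, 14 and 15, against 11.85, 11.44 and 10.89 in HE. Its slope was -0.41 per day, with a limma adjusted p (Benjamini-Hochberg) of 0.00419, and -0.40 in batch 1. ENSMUSG00000022865 read 10.03, 9.81 and 9.33 in TR, against 10.14, 9.72 and 9.29 in HE, a slope of -0.39 with an adjusted p of 0.0102. Both groups fell at each step in both genes. The slope of ENSMUSG00000024501 was -0.347 in TR and -0.482 in HE, and TR lay below HE until both read 10.89 at day 15. For ENSMUSG00000022865 the slopes were -0.352 in TR and -0.422 in HE.

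The slopes of TR and HE were also compared with each other, and 0 genes (0%) were called by limma, with 722 at an unadjusted p under 0.05. Among the 11 genes with a common slope, the slope in TR minus that in HE lay between -0.146 and 0.154 log2 per day, and the smallest unadjusted limma p was 0.155. These genes were chosen by a common slope on the same arrays, so they cannot show whether the groups differ in slope. With 3 arrays a group this comparison was coarse. In simulated data a slope difference of 0.5 log2 per day was called in 0 of 100 genes and one of 1 log2 in 58 of 100.

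**Figure D5:**
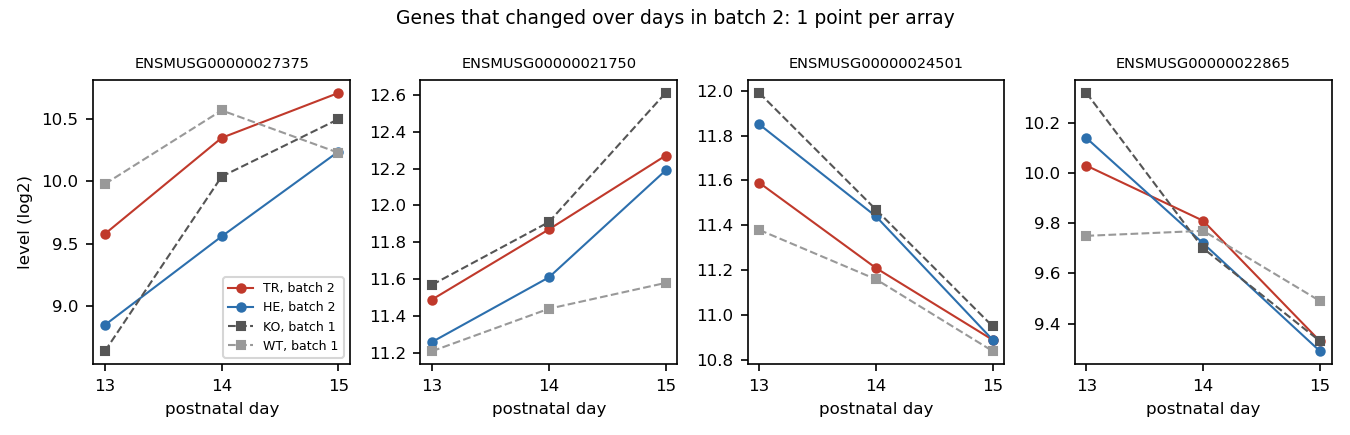
Level (log2) of the 4 genes named for their slopes at postnatal days 13, 14 and 15, with 1 point per array, TR (red) and HE (blue) of batch 2 as solid lines and KO (dark grey) and WT (light grey) of batch 1 as dashed lines. TR and HE lines run in the same direction in each panel, rising in the 2 left panels and falling in the 2 right ones.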

How the data were processed

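The deposited values are log2 expression levels, 1 per Ensembl gene and array, from Affymetrix mouse arrays hybridized with biotin-labelled cRNA primed from the poly(A) tail; the tools were affy and RMA, per the submitters' processing notes. Tool versions, the map from probes to genes, the genome build and any adjustment for batch were not stated in the sources used. The number of arrays limits the precision, which also differs with the level and spread of a gene. Values were used as deposited.

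Groups and batches came from the labels, which call the batches sequencing batches. Differences were fitted with limma 3.58.1 (lmFit and eBayes with an intensity trend) and statmod 1.5.0 in R 4.3.3, with group and batch as terms over all 24 arrays, two-sided, and Benjamini-Hochberg adjustment over 18057 genes at 0.05. Slopes used the 6 arrays of batch 2. TR and HE arrays of the same day in batch 2 deviated together, with correlations of 0.216, 0.248 and 0.157 at days 13, 14 and 15, so day was used as a block beside the unblocked fit. The members of the comparison, the gene sets and the tests were chosen with earlier results of these data known.

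Named genes were to be Arg1 and its neighbours, the genes of smallest p in each contrast and members of marker lists. No table used here pairs the gene numbers with names, so the planned tests of Arg1 and of marker lists could not be applied by name. Every gene number was tested by limma between TR and HE, so a number that stands for Arg1 was tested without being identified. At most 2 numbers in each direction are given for a comparison. ENSMUSG00000019987 and ENSMUSG00000038916, the 2 genes called in batch 2 alone, were entered by number and not by their p over all arrays. ENSMUSG00000069045 and ENSMUSG00000086503 were named after their values were seen. On simulated data with 100 genes shifted by 0.5 and 100 by 1 log2, the comparison of TR with HE over all arrays called 93 and 99, and the test between contrasts 61 and 97. Those data held only the spread within a group and batch, with the same shift in every batch. In the real fit of all arrays, a KO and WT difference that varies by batch adds to the spread. For ENSMUSG00000019987 it was 3.71 in batch 1 and 2.73 in batch 3. The simulated counts can therefore overstate the sensitivity. Alternatives varied the batch term, the normalization, the filter on dim genes, the variance model, the block and the arrays fitted.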

Additional observations from a re-analysis of the deposited data

Results flagged for a closer look

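Among the 6 HE arrays, 1 array of batch 2, at day 14, stood far from the others for ENSMUSG00000069045, with 8.93 log2 against 2.25 to 2.84 in the other 5. Of 34 groups of 6 arrays examined for such gaps, 1 was flagged, where 1.7 would be given by chance alone. That figure does not hold for this gene, which was entered after its arrays were seen to split. The array is the 1 HE array on the high side of the split described above.

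For ENSMUSG00000038916 the difference between TR and HE was larger in batch 2 than in batch 3, by 0.888 log2 with a limma adjusted p (Benjamini-Hochberg) of 0.00593. At day 14, the age of all batch 3 arrays, the batch 2 arrays read 9.49 in TR against 8.51 in HE. The part of the batch in this result was not tested.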

How the results depend on the processing

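The number of genes called between TR and HE was 0 over all arrays, also with batch and day together as a replicate block, and 0 to 0 when any TR or HE replicate was left out. It was 1 with the 12 TR and HE arrays alone, 1 when these had batch and day as a replicate block, 2 in batch 2 alone and 9 in batch 2 with day as a block. Genes at an unadjusted p under 0.05 numbered 544 to 1457 with a replicate left out, the highest without TR replicate 3 of batch 3. ENSMUSG00000019987 passed the threshold in those same fits, at 0.70 log2 in the 12 arrays (limma adjusted p 0.00287, and 0.0101 with the block) and 0.75 in batch 2 (0.0351, and 0.0229 with day as a block). Its difference was 0.635 to 0.741 with a replicate left out. The test between contrasts called 379 genes, against 249 with batch as a random block, 577 with array weights, 770 at an adjusted p under 0.1, 11 in batch 3 alone, 110 in batches 1 and 2 alone, 173 with 2 terms for the arrays that split, 72 without the arrays of days 13 and 15 and 438 with batch and day as a replicate block. With a replicate left out it called 229 to 596, namely 596 without the second KO array, 240 without the fifth HE array, 247 without the fifth WT array and 229 without the sixth WT array. Slopes over days were called for 26 genes after centring each array on its median, for 1 without the intensity trend and for 0 to 55 with an array left out. Differences of slopes were called for 15 to 123 genes with an array left out, fits that keep 1 residual degree of freedom. The cause of these shifts was not tested. Of the 12 genes recomputed under these alternatives, none changed the direction of the difference or slope it was named for; ENSMUSG00000069045 and ENSMUSG00000086503 were not recomputed. With a replicate left out, the median TR and HE difference of the genes higher in KO lay between -0.053, without the HE array of day 13, and -0.0079, without the TR array of day 15. That of the genes lower in KO lay between -0.026 and 0.014, so its sign is not settled.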
